A study of Mus musculus with 6 samples.

Results

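The Ebf genes (Ebf1, Ebf2, Ebf3 and Ebf4) had 42 accessible regions in the embryonic mouse retina, of 46780 in the whole series. A region is a stretch covered by peaks that share at least 1 bp in 6 libraries. It was counted for an Ebf gene if any of its peak summits lay inside the gene. A summit outside all protein-coding genes also counted if the Ebf gene had the nearest protein-coding gene end within 100 kb. Ebf1 had 16 regions, Ebf3 14, Ebf2 8 and Ebf4 4. The members were chosen by name and position, not by their signal.

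Open DNA was profiled by ATAC-seq, an assay that lets Tn5 transposase insert adapters where chromatin is accessible. The retinas came from C57BL/6 mouse embryos at E14.5, a stage given in embryonic days. One group of 3 libraries was Atoh7 +/+ (wild type) and the other group of 3 was Atoh7 SE/SE, with the shadow enhancer of Atoh7 mutated on both alleles. Atoh7 is a proneural gene that retinal ganglion cells need. Each library was the retinal pair of 1 animal and held all cells of the retina, so fewer open cells and less opening per cell cannot be told apart. No transgene or Cre driver is named in the labels, and the exact base changes of the SE allele are not given in the sources used here.

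EBF proteins, also called Collier/Olf/EBF factors, bind DNA as dimers through a zinc-containing domain and carry a helix-loop-helix motif. Ebf1 is best known as a determinant of B lymphocytes, Ebf2 of brown fat, and the family as a whole of olfactory and other neurons. In the retina, Ebf genes act downstream of Atoh7 and take part in the differentiation of ganglion cells and interneurons.

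The starts of the Ebf genes differed in base composition and in accessibility, so the windows from 250 bases before to 50 bases after an annotated start are shown for 3 genes, 5′ to 3′ on the gene's strand, with capitals for GC boxes (GGGCGG on either strand). All are RefSeq sequences of GRCm38.p6. The window of Ebf1 is chr11:44617850-44618149 on the plus strand, that of Ebf3 is chr7:137314396-137314695 on the minus strand, and that of Ebf4 is chr2:130295689-130295988 on the plus strand.
Ebf1: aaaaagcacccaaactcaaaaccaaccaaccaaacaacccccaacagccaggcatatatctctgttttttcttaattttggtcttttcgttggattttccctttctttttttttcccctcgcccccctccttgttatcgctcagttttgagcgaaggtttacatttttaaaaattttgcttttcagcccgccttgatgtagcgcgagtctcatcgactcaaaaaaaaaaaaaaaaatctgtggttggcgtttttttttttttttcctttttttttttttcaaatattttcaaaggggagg
Ebf3: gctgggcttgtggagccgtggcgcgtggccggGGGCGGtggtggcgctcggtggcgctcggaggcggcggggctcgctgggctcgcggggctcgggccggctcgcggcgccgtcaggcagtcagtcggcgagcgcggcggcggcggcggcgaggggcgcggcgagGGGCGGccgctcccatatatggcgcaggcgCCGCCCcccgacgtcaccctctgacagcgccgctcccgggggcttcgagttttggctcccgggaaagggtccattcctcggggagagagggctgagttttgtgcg
Ebf4: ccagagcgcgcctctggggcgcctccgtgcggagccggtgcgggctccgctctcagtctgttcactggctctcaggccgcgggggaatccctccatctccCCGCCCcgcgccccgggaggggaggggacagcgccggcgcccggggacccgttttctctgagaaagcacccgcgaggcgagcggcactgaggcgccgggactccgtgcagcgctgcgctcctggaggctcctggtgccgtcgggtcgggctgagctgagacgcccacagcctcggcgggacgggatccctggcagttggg

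The Ebf3 window had 46 CpG dinucleotides, 77.0% G and C and 3 GC boxes, and the Ebf4 window 35 CpGs, 74.3% G and C and 1 GC box. The Ebf1 window had 9 CpGs, 36.7% G and C and no GC box. The median of 32851 promoter windows was 7 CpGs and 52.7% G and C, and 35.7% of the windows held a GC box. Peaks covered all 300 bases of the Ebf4 window in 6 of 6 libraries. They covered all 300 bases of the Ebf3 window in 5 libraries and 297 bases in wild-type library 3. They covered 0 bases of the Ebf1 window in every library and in both joint lists, a pair of further peak lists whose names give a genotype and no library. A second annotated Ebf1 start, with the window chr11:44619978-44620277, had 17 CpGs and 53.0% G and C. It had 0 bases covered in the 6 libraries, 89 bases in the joint wild-type list and 103 in the joint SE/SE list. The open DNA at the beginning of Ebf1 lay on either side of the first start instead, and its values are given with the gene. None of the 4 windows held the EBF palindrome (TCCC, any 2 bases, GGGA), which 0.904% of promoter windows held on either strand, or the E boxes CAGCTG (16.3%) and CAGATG (17.2%), or TATAAA (13.6%). The GC boxes do not overlap one another. A missing match says only that these letters were not in the window.

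**Figure D1:**
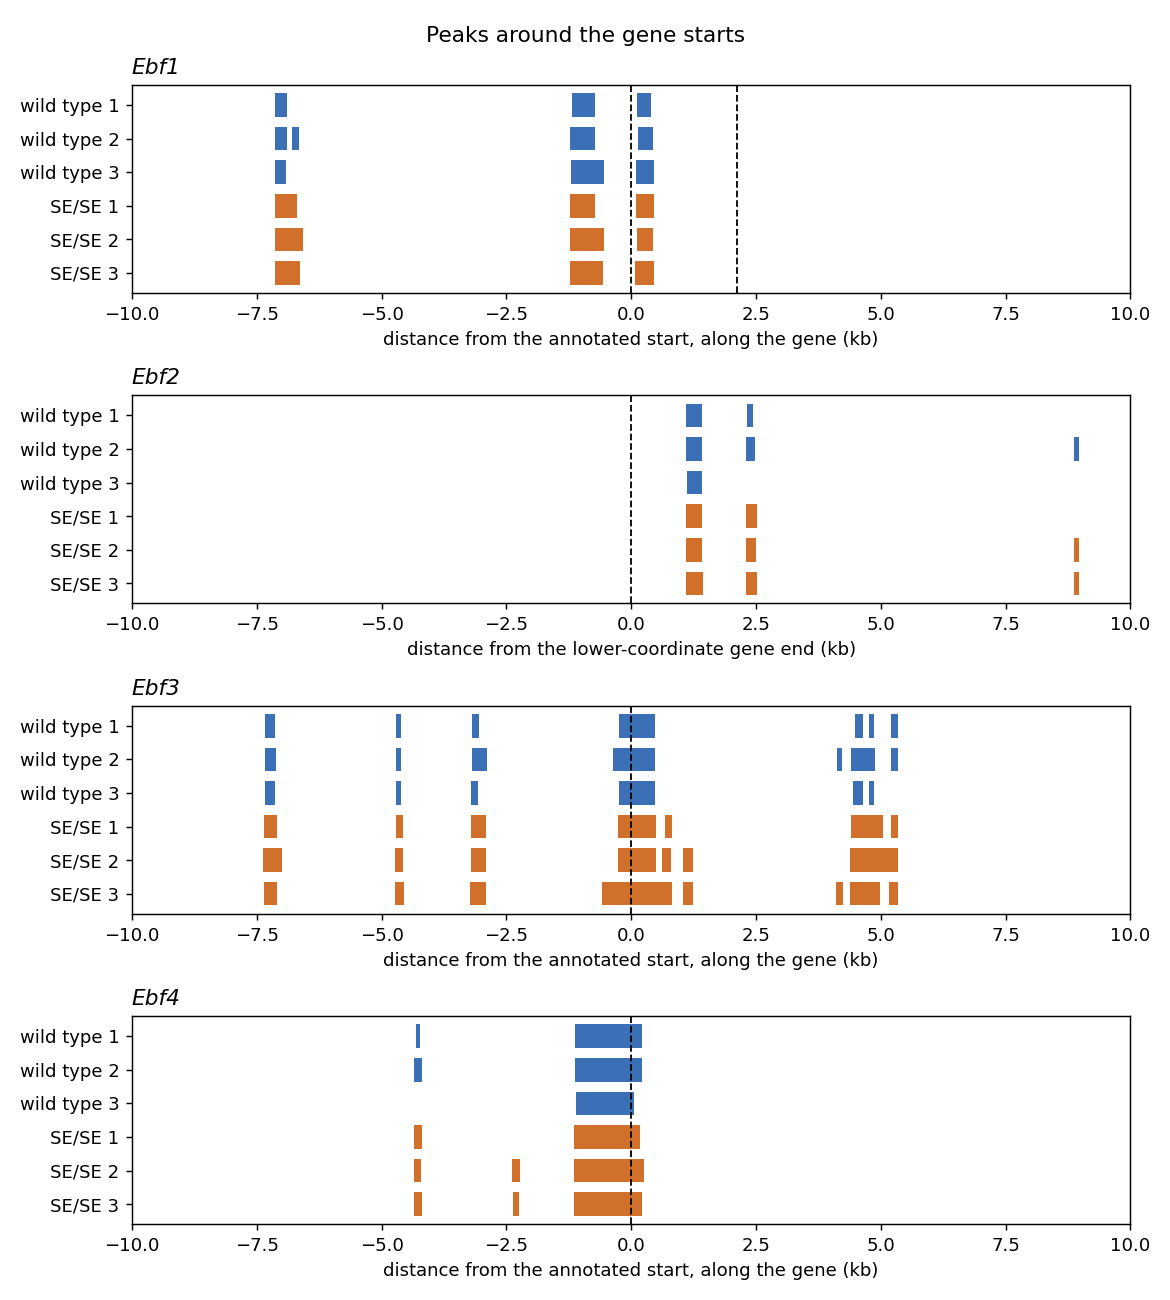
Library peaks around the gene starts, as bars (blue wild type, orange SE/SE, 1 row per library) by distance in kb from the annotated start (dashed, with the second Ebf1 start also dashed) or, for Ebf2, from the lower-coordinate gene end. Peaks cross the starts of Ebf3 and Ebf4 in all 6 libraries, and at Ebf1 they lie on both sides of the first start without crossing it.

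The lists differed in length, which bears on every count below. Wild-type libraries had 31340, 34797 and 27873 peaks (31337 ± 3462, SD, n = 3), and SE/SE libraries 39115, 42722 and 44242 (42026 ± 2633, SD, n = 3). Read depth is unknown, and PCR cycles differed too, so amplification and genotype cannot be told apart. The labels list 17, 18 and 19 cycles for wild type and 15, 16 and 16 for SE/SE, without tying them to libraries. Wild-type library 2 stood apart from its group at the Ebf genes: it had 32 of the 42 regions against 23 and 19, close to the 33 of SE/SE library 1. The neural retina genes Rax, Six6, Lhx2, Pax6, Sox2 and Hes1 each had a gene-end peak (within 1 kb of either end) in all 6 libraries, and Six3 had one in 4. Percentiles below rank the authors' signal value inside 1 list, where 100 is the highest value. They are not compared between libraries, because the lists differ in length. The signal value is not divided by peak width, as the deposited score is, so the rank can reflect width as well as height. Below, "strongest" means the highest signal value. Where a library had more than 1 peak in a region, the percentile is that of its strongest peak.

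Ebf4 held the strongest region of the family by signal value, which takes in its width. In wild-type library 1 the value was 1135 over 1341 bp, against 523 over 314 bp at the Ebf2 region 67234383 to 67234723. Regions were not ranked by signal per base. It spans 130294789 to 130296187 on chromosome 2, across the lower-coordinate end of the gene (gene ID 228598, 130295126 to 130370482). Its signal stood at the 87.5th, 87.9th and 81.4th percentile in wild-type libraries 1 to 3 and at the 90.9th, 92.8th and 93.7th in SE/SE libraries 1 to 3. The peak was 1341, 1346 and 1161 bp wide in wild type and 1333, 1399 and 1358 bp in SE/SE. It was the highest-ranked Ebf region in each of the 6 libraries. The other 3 Ebf4 regions were weak. The region at 130362742 to 130362921, inside the gene, was found in all 3 SE/SE libraries at percentiles 17.0, 10.0 and 27.4 and in 0 wild-type libraries. Outside the gene, 130291589 to 130291752 was found in 5 libraries and 130293557 to 130293712 in SE/SE libraries 2 and 3.

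Ebf3 (gene ID 13593, chromosome 7, 137193671 to 137322805) had the densest set. All 14 of its regions lay inside the gene, or 10.8 per 100 kb of gene against 3.08 for Ebf1, 2.65 for Ebf4 and 2.02 for Ebf2. Its strongest region in the library lists was not at the start. It lay at 137253289 to 137254255, 60190 bp from the annotated start, inside the gene, with percentiles of 83.4, 85.6 and 79.6 in wild type and 88.1, 89.5 and 89.1 in SE/SE. The region over the start, 137313620 to 137315028, stood at 74.9, 77.3 and 70.4 in wild type and 80.4, 79.9 and 82.0 in SE/SE. In the joint lists the order was the other way round: the start region belonged to a peak at the 96.8th and 97.6th percentile (wild type and SE/SE), above the 94.5th and 95.6th of the distal one. The joint peak over the start was wider, from 137312866 to 137315630 in the SE/SE list, and also took in the region at 137313207 to 137313416, which only SE/SE libraries 2 and 3 had.

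A further 6 Ebf3 regions had a peak in all 6 libraries. The broadest of them, 137309091 to 137310065, was split into 1 to 3 peaks, depending on the library, and its strongest peak stood at percentiles 28.5, 55.9 and 31.8 in wild type and 59.0, 63.0 and 63.0 in SE/SE. The region nearest the higher-coordinate end, 137321429 to 137321815, stood at 50.7, 50.9 and 42.7 in wild type and 57.8, 61.9 and 59.3 in SE/SE. The other 4 (137266685 to 137266914, 137301533 to 137301728, 137317342 to 137317671 and 137319001 to 137319174) ranged from percentile 2.05 to 28.2 in wild type and from 24.9 to 53.0 in SE/SE. One Ebf3 region was SE/SE-specific, which means a peak in 3 of 3 SE/SE and 0 of 3 wild-type libraries: 137246621 to 137246814, at percentiles 26.3, 22.8 and 8.92. Regions at 137221616 to 137221949 and 137228722 to 137228961 were found in SE/SE libraries 2 and 3 only, and 137310210 to 137310348 in wild-type library 2 and SE/SE library 3. The region at 137301319 to 137301413, in wild-type library 2 at percentile 0.0632, was the only one of the 42 found in more wild-type than SE/SE libraries. It lies inside a broader peak of both joint lists.

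Ebf1 (gene ID 13591, chromosome 11, 44618100 to 45008096) is 390.0 kb long and had 12 regions inside the gene and 4 outside. The inside region farthest along had its midpoint 274.9 kb from the lower-coordinate end. No library peak lay between that region and the higher-coordinate end. The strongest Ebf1 region was 44616867 to 44617561, which ends 539 bp before the first annotated start. It stood at percentiles 74.3, 80.2 and 74.7 in wild type and 79.8, 82.1 and 80.9 in SE/SE. On the other side of that start, 44618185 to 44618564 stood at 49.5, 51.3 and 50.8 in wild type and 63.8, 59.3 and 65.1 in SE/SE. Both were found in 6 of 6 libraries. So was 44610963 to 44611520, which lay 6580 bp before the start and had percentiles from 40.9 to 63.5.

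Farther inside Ebf1, 3 more regions had a peak in all 6 libraries. The strongest, 44696628 to 44697171, stood at 49.8, 54.4 and 45.9 in wild type and 66.7, 69.1 and 69.5 in SE/SE. Every wild-type library had 2 separate peaks there, 130 and 251 bp wide in library 1, 171 and 255 bp in library 2 and 128 and 243 bp in library 3. Each SE/SE library had 1 peak there, of 526, 544 and 541 bp. The wild-type percentiles above are those of the wider peak alone, so the values of the 2 genotypes do not describe the same stretch. The region at 44654440 to 44654996 likewise had 2 peaks in wild-type libraries 1 and 2, none in library 3, and 1 peak in each SE/SE library. The reverse was seen at the Ebf3 start region, 137313620 to 137315028, with 1 peak in each wild-type library and 2 in SE/SE libraries 1 and 2. The share of all regions with such a split is not given here. The SE/SE lists also had more peaks, and the part of that in the shape was not tested. The other 2 inside regions in all libraries, 44741100 to 44741475 and 44816027 to 44816305, ranged from percentile 3.19 to 51.4.

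The Ebf1 region found in SE/SE only in all 3 libraries was 44727932 to 44728118, at percentiles 32.5, 26.2 and 38.9, the highest among the SE/SE-specific regions of the family in each library. Wild-type library 2 and all SE/SE libraries shared the regions at 44665351 to 44665596, 44806684 to 44806978 and 45008166 to 45008392. Wild-type libraries 1 and 2 and all SE/SE libraries shared the regions at 44841794 to 44841969 and 44892858 to 44893146. The remaining inside regions were 44683160 to 44683316, in SE/SE library 3, and 44792921 to 44793085, in SE/SE libraries 1 and 3. Beyond the higher-coordinate end, 45103552 to 45103979 lay 95615 bp away in the long noncoding RNA genes Gm51859 and Gm12159 and had a peak in 6 of 6 libraries, at percentiles of 48.0 to 59.4 in wild type and 62.6 to 63.6 in SE/SE.

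Ebf2 (gene ID 13592, chromosome 14, 67233292 to 67430952) had a peak in all 6 libraries at 2 places, both inside the gene. The region at 67234383 to 67234723, 1263 bp from the lower-coordinate end, stood at 68.3, 69.6 and 66.2 in wild type and 73.1, 73.0 and 74.4 in SE/SE. The region at 67344629 to 67345038, which also lies in the noncoding gene 4930438E09Rik, stood at 44.8, 46.9 and 40.7 in wild type and 61.2, 62.9 and 62.2 in SE/SE. No library had a gene-end peak at Ebf2, and none at Ebf3, whose annotated start in the promoter table lies inside the longest gene span. A cluster of 3 regions lay about 44 kb outside the gene, in the long noncoding RNA gene Gm30438. Of these, 67188806 to 67188990 was found in 5 libraries, 67188428 to 67188597 in 3, and 67189092 to 67189206 was SE/SE-specific at percentiles 16.6, 0.454 and 13.7. The value in SE/SE library 2 is near the bottom of its list. Both joint lists had 1 peak over the latter region and its neighbour at 67188806. The regions at 67211785 to 67212027, 67235586 to 67235820 and 67242156 to 67242269 were found in 4, 5 and 3 libraries.

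**Figure D2:**
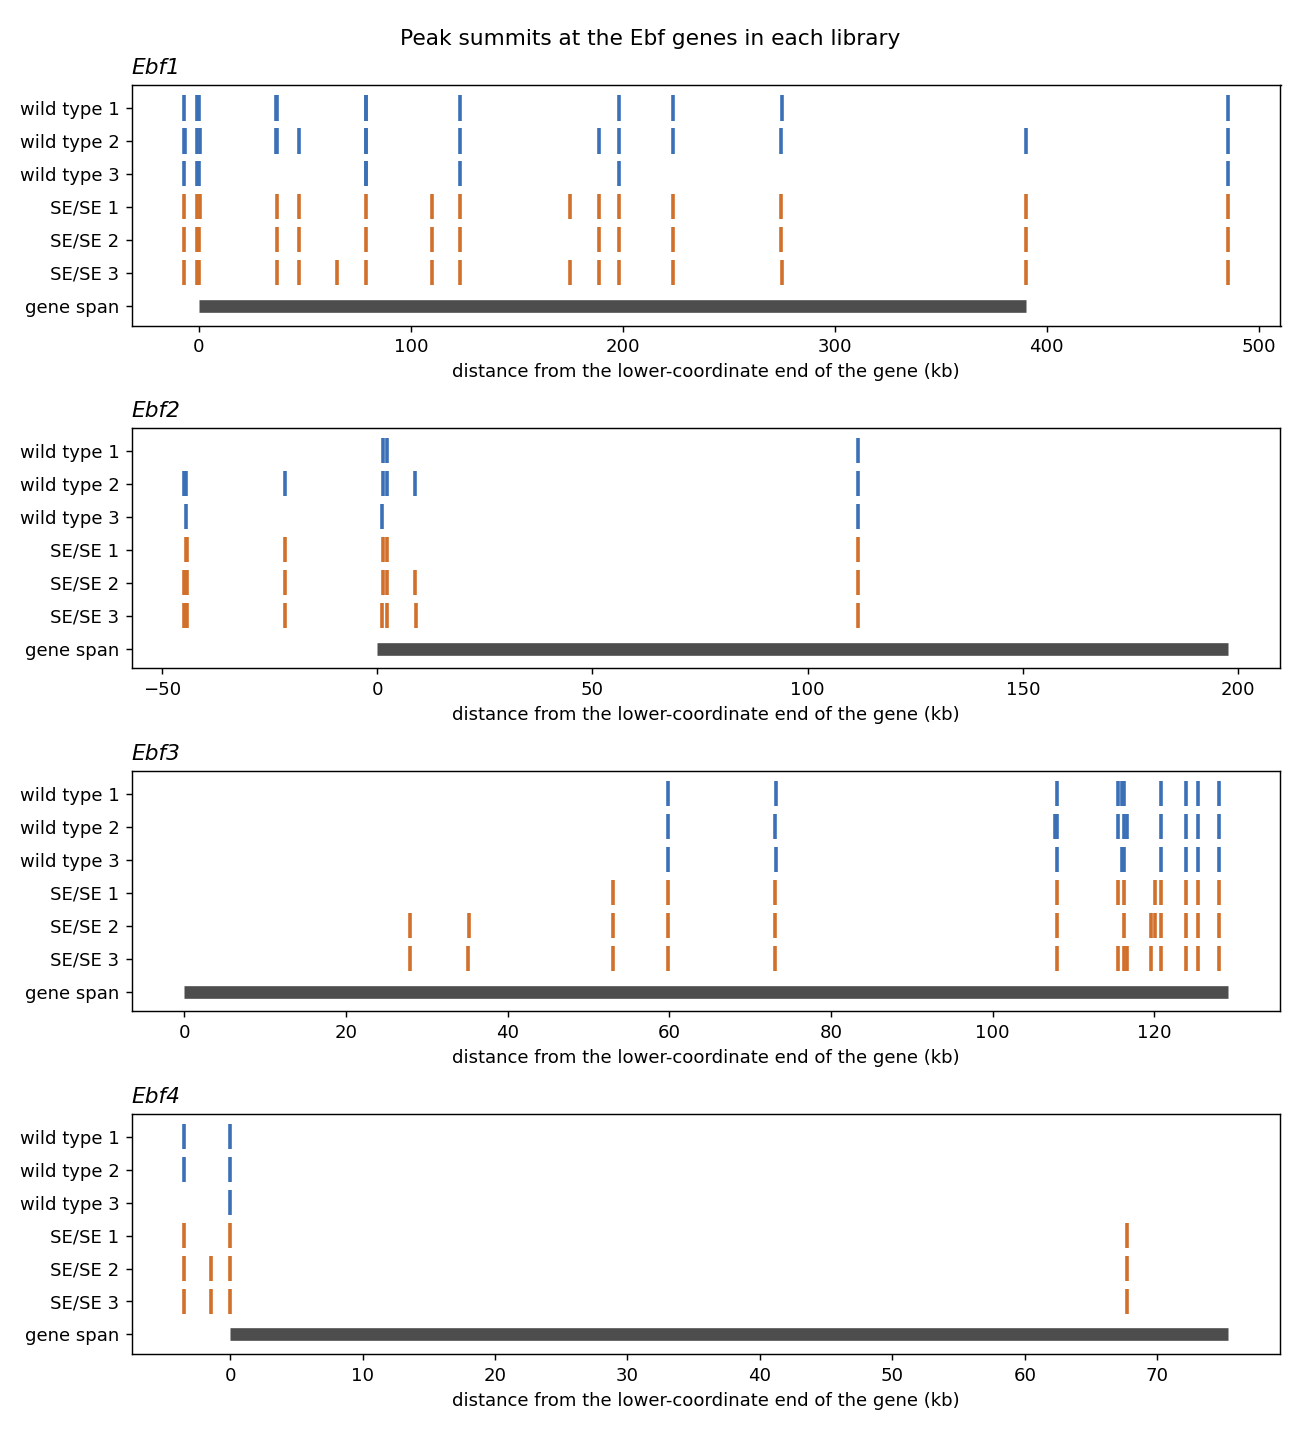
Peak summits in each library along the 4 Ebf genes, by distance in kb from the lower-coordinate gene end, with 1 row per library (blue wild type, orange SE/SE) and a dark bar for the gene. All 14 Ebf3 regions lie inside the gene, and each gene has 1 region that is marked in the 3 SE/SE rows and in 0 wild-type rows.

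**Figure D3:**
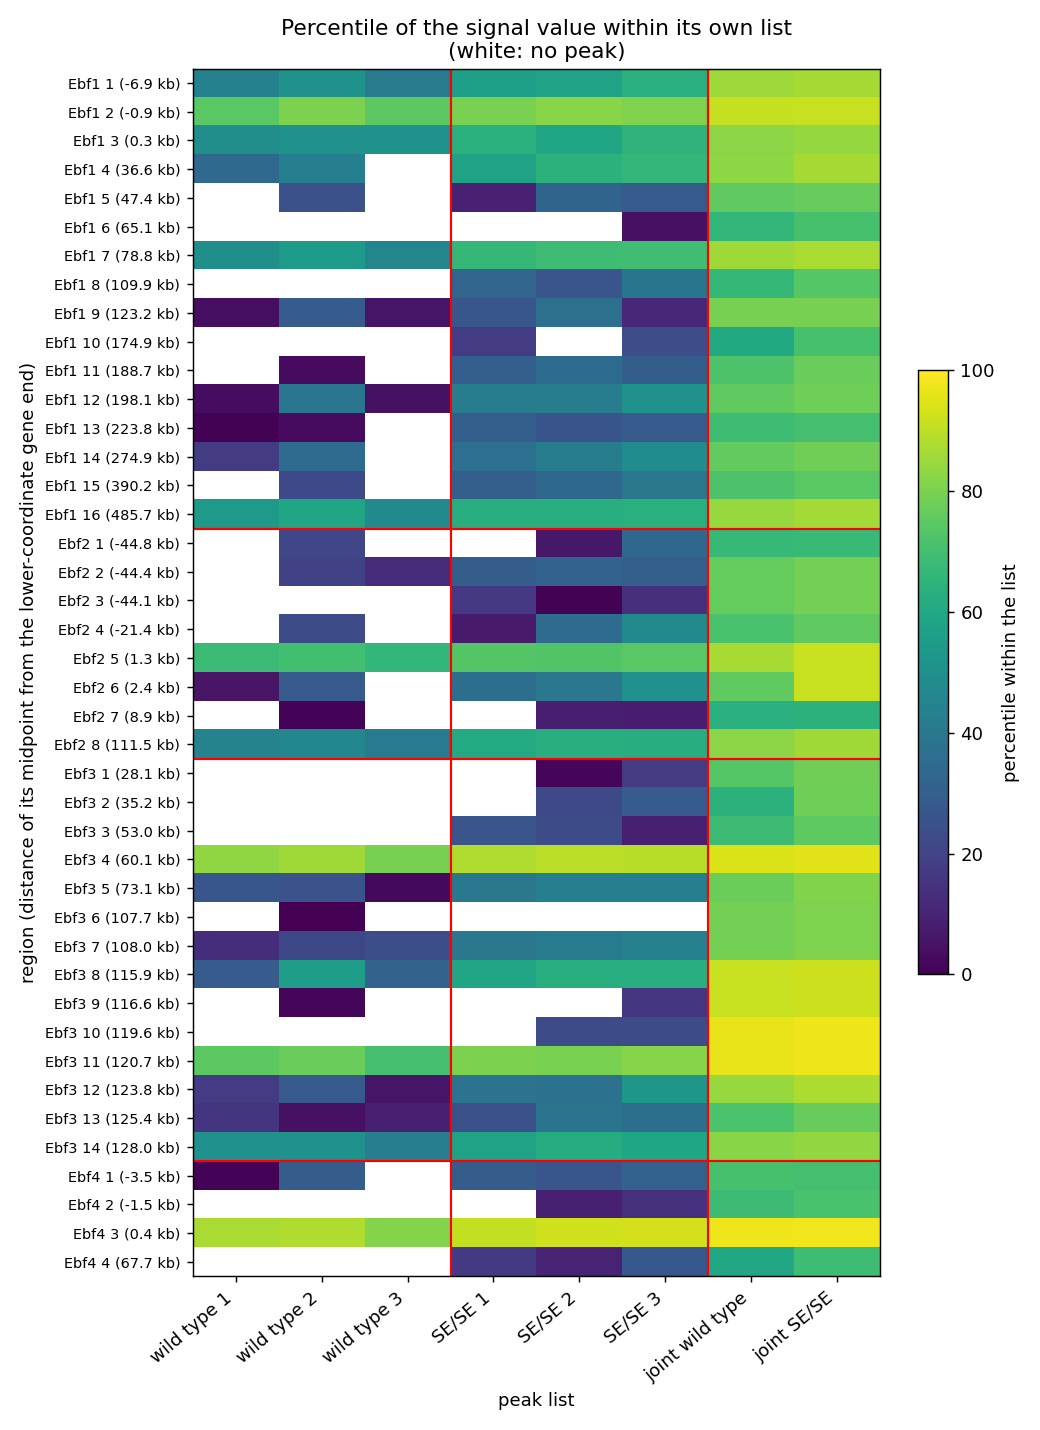
Signal percentile of each of the 42 regions (rows, with the distance of the midpoint from the lower-coordinate gene end in kb) inside each of 8 peak lists (columns), white where a list has no peak. In the library lists the values reach 93.7, the 4 SE/SE-specific regions stay at or below 38.9, and every region is coloured in both joint lists. A joint column shows the overlapping joint peak, which can also cover a stronger neighbour. At the Ebf2 region 67235586 to 67235820 the joint SE/SE peak (91.8) does so and the joint wild-type peak (75.4) does not.

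Across the 4 genes, 18 of the 42 regions (42.9%) had a peak in all 6 libraries, compared with 52.1% of all regions. Of the rest, 4 (9.52%) were SE/SE-specific, 1 in each gene, compared with 8.23% of all regions, and 0 were wild-type-specific, compared with 0.0321%. The count of 1 per gene rests on single libraries: without wild-type library 2 it was 4 at Ebf1 and 2 at Ebf2, without SE/SE library 1 it was 4 at Ebf3 and 2 at Ebf4, without SE/SE library 2 it was 2 at Ebf1, and without SE/SE library 3 it was 2 at Ebf3. The SE/SE-specific share was near the background. A further 20 regions were found in other sets of libraries. Counted by direction, 22 regions (52.4%) had a peak in more SE/SE than wild-type libraries (45.8% of all regions), 19 in as many, and 1 in more wild-type libraries. Of the 42, 32 lay inside an Ebf gene. The median width was 398.5 bp for regions in all 6 libraries and 186 bp for the others, against 604.5 and 178 bp over all regions. In SE/SE libraries 1 to 3 the median percentile was 60.1, 62.3 and 63.3 for the regions in all 6 libraries and 21.6, 16.4 and 20.5 for the SE/SE-specific ones. For presence in 3 against 3 libraries the smallest exact two-sided permutation p is 0.1, so no region could pass a threshold of 0.05.

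**Figure D4:**
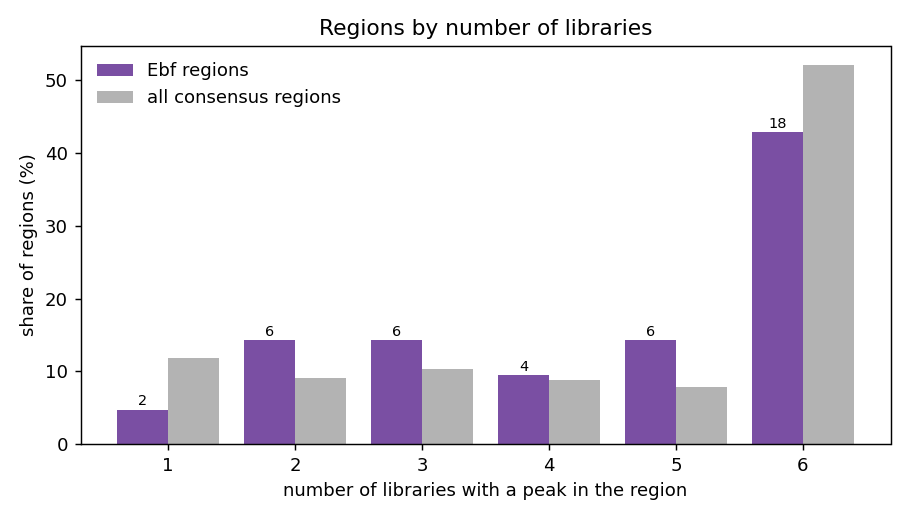
Share of regions in percent by the number of libraries with a peak, for the Ebf genes (purple, with the number of regions above each bar) and for all regions (grey). The Ebf genes have 42.9% in all 6 libraries against 52.1% of all regions, and 4.76% in 1 library against 11.8%.

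Each Ebf gene had more regions with a peak in SE/SE than in wild-type libraries on average, and none of the differences passed the test. Ebf1 had 10, 13 and 7 regions in wild-type libraries 1 to 3 and 15, 14 and 16 in SE/SE libraries 1 to 3. The groups did not overlap (10.0 ± 3.0 and 15.0 ± 1.0, SD, n = 3 each; exact two-sided permutation p = 0.1, adjusted p = 0.571). Ebf4 had 2, 2 and 1 regions in wild type and 3, 4 and 4 in SE/SE. These did not overlap either (1.67 ± 0.577 and 3.67 ± 0.577, SD, n = 3 each; exact p = 0.1, adjusted p = 0.571). Ebf2 had 3, 7 and 3 regions in wild type and 6, 8 and 8 in SE/SE, which overlapped through wild-type library 2 (4.33 ± 2.31 and 7.33 ± 1.15; exact p = 0.2, adjusted p = 0.949, n = 3 each). Ebf3 had 8, 10 and 8 in wild type and 9, 12 and 13 in SE/SE, also overlapping (8.67 ± 1.15 and 11.3 ± 2.08; exact p = 0.2, adjusted p = 0.949, n = 3 each).

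Groups that did not overlap, with SE/SE higher, were found for 2 of the 4 Ebf genes and for 17.5% of 15547 genes; the opposite order was found for 0.0450%. Genes with many regions separate more often, and among genes within 20% of the number of regions the share was 76.7% for Ebf1, 56.5% for Ebf2, 76.6% for Ebf3 and 31.8% for Ebf4. With Benjamini-Hochberg adjustment over 15547 genes, 0 (0.00%) had an adjusted p under 0.05 by the exact permutation test, 0 had an unadjusted p under 0.05, and 2722 stood at the smallest possible p of 0.1. Summed over the family, wild-type libraries had 23, 32 and 19 regions and SE/SE libraries 33, 38 and 41, a ratio of means of 1.51 against 1.42 over all regions. Without wild-type library 2 the difference of means rose from 12.7 to 16.3 regions, and the Ebf2 and Ebf3 groups no longer overlapped. The share of all genes that separate in that setting is not given here. SE/SE-specific regions then rose over the whole series too, from 8.23% to 15.1% of all regions.

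The excess in SE/SE was smaller in lists of equal length. The cut removes the difference in length by construction, so it cannot tell where that difference comes from. When each library was cut to its 27873 strongest peaks, the family had 18, 25 and 19 regions in wild type and 25, 23 and 22 in SE/SE, which overlap. Of the 30 Ebf regions left, 0 were SE/SE-specific, compared with 1.38% of 31360 regions in the series. The Ebf1 difference became 2.33 regions with overlapping groups, the Ebf2 difference 0.667 (2, 5 and 3 regions in wild type, 4 in each SE/SE library) and the Ebf4 difference 0. Ebf3 had 8, 7 and 8 regions in wild type and 7, 8 and 7 in SE/SE. Of the 18 regions in all 6 libraries, 15 still had that status, or 50% of 30 regions against 72.4% of all regions at this length.

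**Figure D5:**
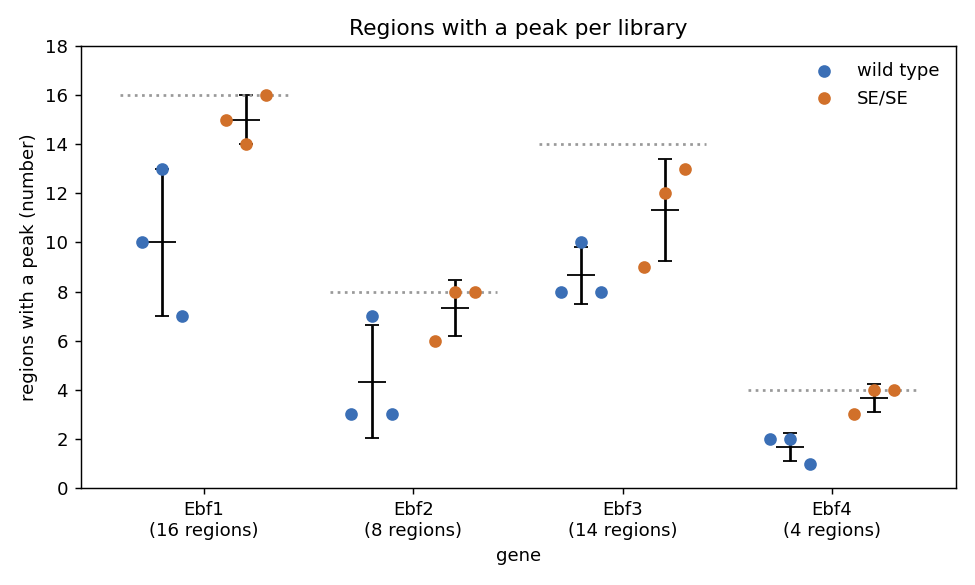
Number of regions with a peak at each Ebf gene, with 1 point per library (blue wild type, orange SE/SE), black bars for the mean and SD of 3 libraries, and a dotted line for the gene's total. The groups do not overlap at Ebf1 and Ebf4, and overlap at Ebf2 and Ebf3.

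The joint lists were much longer and showed more of the Ebf loci. The joint wild-type list had 109 Ebf peaks (Ebf1 47, Ebf2 22, Ebf3 35, Ebf4 5) and the joint SE/SE list 134 (64, 27, 37 and 6). Each of the 42 regions overlapped a peak of both joint lists, the 4 SE/SE-specific ones included, as did 46769 of the 46780 regions of the series. The joint wild-type peaks over 3 of those stood at percentiles 66.6 (Ebf1), 68.6 (Ebf3) and 59.4 (Ebf4). The one over the Ebf2 region also covers its neighbour and has its summit there, so its percentile is not a level of that region. Of the joint wild-type peaks, 4 (3.67%) had no overlap in the other joint list, compared with 6.28% over all peaks. Of the joint SE/SE peaks, 38 (28.4%) had none, compared with 22.0%, and by gene these were 21 of 64 for Ebf1, 7 of 27 for Ebf2, 9 of 37 for Ebf3 and 1 of 6 for Ebf4. None of the 38 overlapped a library peak, and the strongest stood at percentile 41.7. Each genotype has 1 joint list, so these shares have no replicate check. 

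Some joint peaks at the Ebf genes had no peak in any library and still ranked high in both joint lists, where genotypes cannot be compared by rank. The strongest such Ebf3 peak crossed the higher-coordinate gene end, at percentile 74.8 in wild type (137322168 to 137323082) and 79.1 in SE/SE (137322157 to 137323186). The strongest at Ebf2 crossed the lower-coordinate gene end, at 67.1 in wild type (67233154 to 67233770) and 71.4 in SE/SE (67233094 to 67233611). Both genes thus had a gene-end peak in the joint lists but not in the libraries. At Ebf1, such peaks lay before the gene, at 62.2 in wild type (44612955 to 44613609) and 78.6 in SE/SE (44612622 to 44613847), and inside it, at 67.5 in wild type (44832276 to 44832857) and 77.2 in SE/SE (44832251 to 44833143). At Ebf4, the strongest reached 72.1 in wild type (130365259 to 130366000) and 77.6 in SE/SE (130365239 to 130366017).

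By number of regions, Ebf1 stood at the 99.2nd percentile of genes with a region, Ebf3 at the 98.8th, Ebf2 at the 95.1st and Ebf4 at the 84.4th, against a median of 2 regions per gene. The genes next to them were sparse: Rnf145, Clint1, Ppp2r2a, Cdca2, Mgmt, Idh3b and Cpxm1 had 1 region each, with a peak in 6 of 6 libraries. The gene 9430038I01Rik beside Ebf3 had 2, of which the second was found in wild-type library 1 only. The genes whose share of regions per library was most like that of a member, over the 6 libraries, were Astn2, Pkdcc and Epb41l4a for Ebf1 (mean absolute differences of 0.0313, 0.0438 and 0.0441) and Greb1, Msrb3 and Cpz for Ebf2 (0.0208, 0.0417 and 0.0625). They were Aff1, Srgap3 and Zbtb7c for Ebf3 (0.0357 each) and Adhfe1, Bhlhe22 and Cers6 for Ebf4, each with the same share in every library. The 3 for Ebf4 were taken by symbol from 9 genes tied at 0, and Cpz for Ebf2 by symbol among tied genes, with 13 at or below its value.

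The known partners and the retinal neurogenic network of the Ebf genes, 19 genes in all, had 158 regions. Peaks in all 6 libraries were found at 42.4% of these, and 10.8% were SE/SE-specific, compared with 52.1% and 8.23% of all regions. Of the 158, 2 were wild-type-specific, compared with 0.0321% of all regions. Both were at Atoh7, the gene whose shadow enhancer is mutated in SE/SE, and whether they lie in the altered sequence was not tested. Groups did not overlap, with SE/SE higher, for 10 of the 19 genes, compared with 17.5% of all genes and with higher shares among genes with many regions, as given above, and 0 passed the adjusted test; the median difference was 1.67 regions. Zfp423, a zinc finger protein that binds EBF1, had 24 regions, with peaks in 11, 14 and 9 of them in wild type and in 17, 21 and 23 in SE/SE. Zfp521, its paralogue, had 11 regions, with 4, 5 and 4 in wild type and 7, 11 and 5 in SE/SE. Atoh7 itself had 5 regions, with 4, 5 and 4 in wild type and 3, 3 and 3 in SE/SE, the reverse order.

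Other cell types express Ebf genes, and some of their genes had peaks here. Of 14 mesenchyme and pericyte genes, 7, 9 and 7 had a gene-end peak in wild-type libraries 1 to 3 and 10, 11 and 11 in SE/SE libraries 1 to 3. Col3a1, Rgs5 and Cspg4 had none, and 5 had one in 6 of 6 libraries. The groups did not overlap, but the same count over all genes is not given here and the SE/SE lists were longer. The difference is therefore not read as particular to these genes, and its part in the Ebf counts was not tested. Of 8 B lineage genes, 7 had no such peak in any library, and Cd79a, which encodes a chain of the B cell receptor, had one in SE/SE libraries 2 and 3. Of 4 olfactory neuron genes only Adcy3, and of 5 adipocyte genes only Pparg, had one, in 6 of 6 libraries each.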

How the data were processed

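ATAC-seq was analysed from 8 deposited peak lists, 6 of single libraries and 2 joint lists, in retinas of 3 wild-type and 3 SE/SE embryos. Per the submitters' processing notes, cutadapt, BWA, Genrich 0.5, bedtools 2.27.0, limma and GRCm38 (mm10) were used; their roles, the Tn5 shift, duplicate handling and how the joint lists were made are not given in the sources used here. The authors' deposited signal value was at least 20, the deposited score was 1000 times signal over width with a cap of 1000, and the deposited −log10 p-values were not used further. No read counts were analysed, so depth is unknown and no counting interval can be given. Transposition used about 100000 cells and amplification 50000 cell equivalents, per the labels' protocols.

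Positions count from 1. Library peaks sharing 1 bp or more were merged into regions. Each region took the protein-coding gene (RefSeq, GRCm38.p6; this gene table gives no strand, exons or UTRs) found by a summit in the gene or the nearest gene end within 100 kb. A region with a peak in 3 of 3 libraries of one genotype and 0 of 3 of the other was genotype-specific. For regions per gene, an exact permutation test (two-sided, 20 assignments) was used, with Benjamini-Hochberg adjustment over 15547 genes. The genes named are the 4 Ebf genes, a list of 19 partners and network genes, the 3 genes with the most similar shares among those within 20% of a member's number of regions, and the neighbouring genes. The members and lists were chosen with earlier results of these data known. Not every gene of the neural retina marker list is reported here. Alternatives covered overlap, list length, a signal minimum of 100, gene distance, noncoding genes and each library left out. Python 3.11.15, numpy 2.4.6, pandas 2.3.3, scipy 1.17.1 and matplotlib 3.10.9 were used, and the calculations were tested on simulated data.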

Additional observations from a re-analysis of the deposited data

How the results depend on the processing

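Of 354 alternative values, 323 kept the direction and the side of the threshold or, for counts, stayed within 1.5 times. For the tested differences this sets no limit on size. Their side of the threshold was fixed in advance, because no exact p could fall below 0.1. The alternative that asked for a peak summit in the region also gave the main values by construction. The 323 thus include outcomes that could not differ. With each list cut to 27873 peaks, the family had 0 SE/SE-specific regions and a difference of 2.67 regions per library; the Ebf1 and Ebf2 differences were 2.33 (exact p = 0.3) and 0.667 (exact p = 0.7), the Ebf3 difference turned to −0.333 (exact p = 1.0) and that of Ebf4 to 0 (exact p = 1.0). Equal lists remove the difference in length by construction. With a signal of at least 100, 11 of 30 regions were found in 6 of 6 libraries (56.1% over the series) and 5 were SE/SE-specific (9.28% of all regions), 3 of them at Ebf3 and 0 at Ebf4. The family difference was then 11.7, those of Ebf2 and Ebf3 were 2.67 and 4 (exact p = 0.1 each), and that of Ebf4 was 0.333 (exact p = 1.0). With regions built from summits, an alternative chosen after seeing the data, 1 of 48 regions was wild-type-specific (0.665% of all regions), at Ebf1 44696608 to 44696816, where wild-type libraries have 2 peaks and SE/SE libraries 1; the Ebf1 difference was 3 (exact p = 0.4). Leaving out each library in turn gave 4 to 8 SE/SE-specific regions, with 8 both without wild-type library 2 (15.1% of all regions then) and without SE/SE library 1 (14.6%). It gave 18 to 23 regions in all libraries (52.5% to 58.2% of all regions), 41 to 43 regions in total, 0 wild-type-specific regions in each case, and a family difference of 9.83 to 16.3. The differences ranged from 3.5 to 6.5 for Ebf1, 2.33 to 4.33 for Ebf2, 2.33 to 3.83 for Ebf3 and 1.67 to 2.33 for Ebf4. Counting noncoding genes as well left 4 regions for Ebf2, 0 of them SE/SE-specific, and a difference of 0.667 (exact p = 0.7). The deviations of same-numbered libraries had correlations of 0.0357, 0.120 and −0.273, and those of differently numbered ones ranged from −0.335 to 0.348. With 3 libraries per group, these values cannot tell whether the numbers pair the samples. With a replicate block the differences were 5 for Ebf1, 3 for Ebf2, 2.67 for Ebf3 and 2 for Ebf4, each with an exact permutation p of 0.25, the smallest that 8 assignments give. Read depth is unknown, which limits every count of absent peaks.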
